A study of Mus musculus with 3 samples.

Results

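Tumour cells that carried transcripts of both Ereg and Sema3a and stayed below a limit on transcripts of dividing cells are described here. They were read in single-cell RNA sequencing of mouse tumour tissue. They numbered 2865 of 33482 cell barcodes, with 835 from the library labelled Flox+ICI, 1107 from Flox+RI and 923 from CKO+RI. Each group was this 1 library, so no p-value could be made, and every interval below covers counting error only. Counts are unique molecular identifiers (UMIs), each standing for a captured transcript. All 3 groups bore the same tumour, LLC1-sgLkb1, which is Lewis lung carcinoma with a guide against Lkb1 (gene Stk11). Flox hosts had the genotype Sfrp2fl/fl, and the CKO host is named Sfrp2ΔCol1a2, after a deletion of Sfrp2 driven by the Col1a2 promoter of fibroblasts and other mesenchymal cells. Lesions in the lung were seeded through the tail vein and served as the side that was not irradiated, and the same cells were placed under the skin 3 weeks later as the irradiated side. The Flox+ICI host received immune checkpoint inhibition (ICI) alone, and RI stands for radiotherapy with ICI. The labels give the tissue only as tumor, and the lesion sampled, the number of animals behind a library and their age are not given in the sources used here.

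Ereg encodes epiregulin, a ligand of the EGF family that is made as a membrane precursor, shed by proteases, and bound by EGFR and ERBB4. Sema3a encodes semaphorin 3A, a secreted guidance cue that binds neuropilin 1 with a plexin A partner and repels axons and endothelial cells. Dkk2 encodes a secreted Dickkopf protein that binds the Wnt co-receptors LRP5 and LRP6 and dampens canonical Wnt signalling. In GRCm38, Ereg (ENSMUSG00000029377) lies on the plus strand of chromosome 5 at 91074622 to 91093646. Sema3a (ENSMUSG00000028883) lies on the plus strand of the same chromosome at 13125414 to 13602565. Dkk2 (ENSMUSG00000028031) lies on the plus strand of chromosome 3 at 132085292 to 132180304.

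The cells were chosen by their measured counts. A barcode was taken as a tumour cell with at least 5000 UMIs, at most 20% mitochondrial UMIs, at most 1 UMI each of Ptprc (the pan-leukocyte CD45) and Pecam1 (the endothelial CD31), and a UMI of at least 3 of the 7 genes Krt8, Krt18, Hmga2, Prl2c3, Igf2bp2, Igf2bp3 and Tnfrsf12a. At least 1 UMI each of Ereg and Sema3a was required. Cells were left out when Mki67, Top2a, Cdc20 and Cenpf, genes of dividing cells, summed to 5 or more per 10000 UMIs, and likewise for the interferon-induced Gbp2, Iigp1, Igtp and Irgm1. Cells with a UMI of both R3hdml and Il1rl1, or at least 2 UMIs each of Lum and Dcn, were also left out. The levels of Ereg and Sema3a in the chosen cells, and every contrast with cells that lack them, are therefore descriptions.

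At its threshold the rule was lenient. The median Ereg+ Sema3a+ cell held 3 Ereg UMIs in each library, and the highest held 58 in Flox+ICI, 93 in Flox+RI and, for CKO+RI, 74. A single Ereg UMI qualified 26.9% of them in Flox+ICI, 28.2% in Flox+RI and, for CKO+RI, 32.3%. The median count of Sema3a was 17, 26 and 14 UMIs in that order, and a single Sema3a UMI qualified 4.55%, 1.45% and 11.9%. Tumour cells positive for both genes with a division score of 4 to 5 per 10000, just inside the limit, numbered 66, 126 and 107, and those at 5 to 6, just outside, numbered 55, 122 and 125. Cdk1, a mitosis gene outside the rule, still had a UMI in 32.9%, 36.4% and 53.3% of the Ereg+ Sema3a+ cells. Non-cycling here means below this limit only.

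The libraries held 75543561 UMIs (Flox+ICI), 101840883 (Flox+RI) and 161250286 (CKO+RI), and the depth per cell differed with them. An Ereg+ Sema3a+ cell had a median of 14131, 14761 and 23599 UMIs in that order, against 11538, 13898 and 18765 in the other non-cycling tumour cells. These other cells, 636, 792 and 1211 in number, passed the same limits but lacked a UMI of Ereg, Sema3a or both, and they are the comparison used throughout. Between 31 and 37 barcode sequences were shared by each pair of libraries, none of them among the Ereg+ Sema3a+ cells. Doublet scoring marked 10.7%, 13.7% and 8.13% of the Ereg+ Sema3a+ cells and 9.91%, 14.5% and 6.11% of the other non-cycling tumour cells. The share marked among all barcodes was set in advance, at 8.67%, 10.7% and 7.44%. Sfrp2, the gene deleted in the CKO host, had 0, 6 and 1 UMIs in the Ereg+ Sema3a+ cells. Outside the tumour limits it had 22, 4 and 30 UMIs, or 0.856, 0.164 and 1.27 per 1000000 UMIs (CPM), so the counts do not show the deletion that the label CKO+RI names. These counts were few and were not read by cell type. Directions drawn from the library labelled CKO+RI rest on that label. Stk11 was read at 30, 26.1 and 29.4 CPM in the Ereg+ Sema3a+ cells. A 3' count does not show whether a guide cut a gene.

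Markers of the tumour line were read in the cells, and Hmga2 and Krt8, as genes of the rule, had to be frequent. Hmga2, a chromatin protein of embryonic and tumour tissue, was found in 99.4% to 99.8% of them, at 1477 CPM in Flox+ICI, 1446 in Flox+RI and, for CKO+RI, 1425. The simple-epithelial keratin Krt8 stood at 724, 1015 and 846 CPM, and the intermediate filament gene Vim at 2268, 2125 and 3031 CPM. The epithelial adhesion genes Epcam (0.109 to 0.468 CPM) and Cdh1 (0.219 to 0.545 CPM) were close to absent. Prl2c3 had 2, 0 and 0 UMIs, so that the limit in practice used the other 6 genes. Xist, an RNA of cells with an inactive X chromosome, stood at 4.36, 8.36 and 3.50 CPM, against 204, 166 and 197 CPM in barcodes outside the tumour limits.

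The Ereg+ Sema3a+ cells made up a similar share of tumour cells in both Flox libraries and a smaller one in the library labelled CKO+RI. The share was 27.1% in Flox+ICI (exact Clopper-Pearson 95% interval 25.6 to 28.8, of 3076 tumour cells), 26.5% in Flox+RI (25.1 to 27.8, of 4181) and 19.1% in CKO+RI (18 to 20.3, of 4822). The intervals of the Flox libraries overlap, and that of CKO+RI lies below them. Among non-cycling tumour cells alone the shares were 56.8%, 58.3% and 43.3%. With Ereg and Sema3a read after each cell was thinned to 5000 UMIs, the shares of tumour cells were 18.2%, 17.3% and 9.04%. The other limits of the rule were still read at full depth, so thinning removed the difference in depth for Ereg and Sema3a only. Which cells the rule removed differed between libraries. Of tumour cells with both transcripts it left out 556 for R3hdml with Il1rl1 in Flox+RI, against 23 in Flox+ICI and 34 in CKO+RI, and 847 for Lum with Dcn in CKO+RI, against 3 in Flox+ICI and 0 in Flox+RI. Before any state was left out, tumour cells with both transcripts made up 55.3%, 59.4% and 52.2% of tumour cells, and thinned 33.2%, 35.5% and 24.7%.

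**Figure D1:**
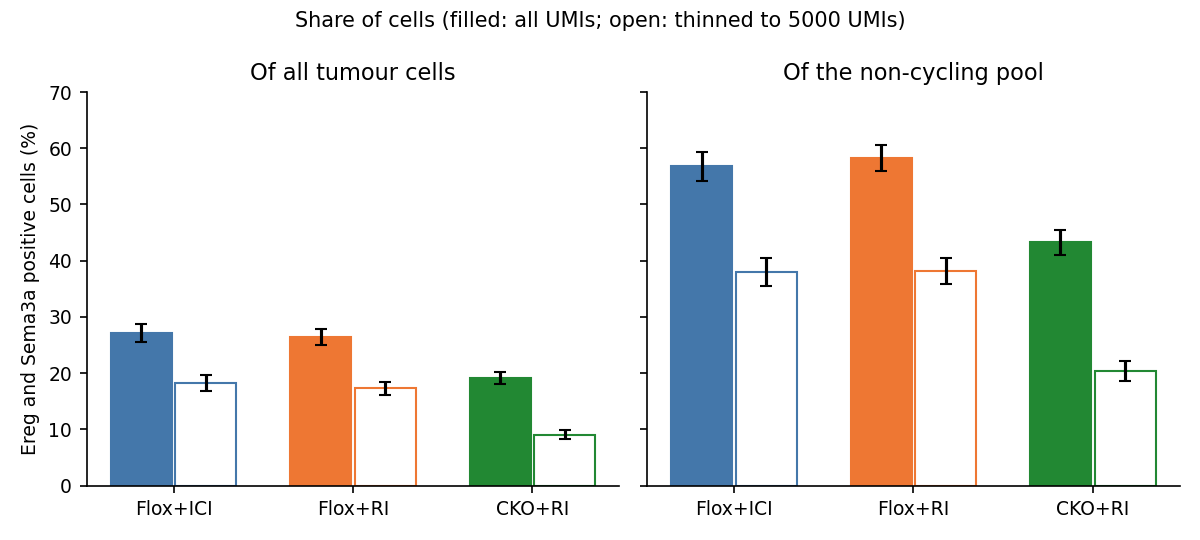
Ereg+ Sema3a+ cells as a percentage of tumour cells and of non-cycling tumour cells in each library, with exact 95% binomial intervals, as deposited (filled bars) and after thinning each cell to 5000 UMIs (open bars). Of tumour cells the shares are 27.1%, 26.5% and 19.1% as deposited, and CKO+RI is the lowest of the 3 libraries under either reading.

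Of the transcript pair, Ereg was the limiting one. Among non-cycling tumour cells Sema3a was found in 89.0% (Flox+ICI), 96.5% (Flox+RI) and 82.0% (CKO+RI), and Ereg in 60.0%, 58.8% and 49.3%. Most of the comparison cells thus carried Sema3a without Ereg (474, 726 and 826 cells), few carried Ereg without Sema3a (47, 9 and 130), and 115, 57 and 255 carried neither. Both transcripts met in the same tumour cell 1.06, 1.02 and 1.05 times as often as the product of their separate shares, and 1.14, 1.05 and 1.17 times after thinning. No UMI of Ereg was found in 40.0%, 41.2% and 50.7% of the non-cycling tumour cells.

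The same transcripts were also found in barcodes of another kind. In barcodes with Cd3e and Ptprc, genes of T cells and leukocytes, thinned to 2000 UMIs, Ereg was found in 2.22% (135 barcodes of Flox+ICI), 6.35% (63 in Flox+RI) and 3.79% (211 in CKO+RI). In the Ereg+ Sema3a+ cells thinned alike, each admitted for an Ereg UMI, it was found in 46.1%, 44.0% and 35.8%. In the other non-cycling tumour cells, most of them without Ereg by the rule, it was found in 2.2%, 0.126% and 3.39%. The rule made this gap, so it says nothing on free RNA. Sema3a was found in 6.67%, 31.7% and 14.2% of the T-cell barcodes and in 56.3%, 72.5% and 36.7% of the other non-cycling tumour cells. The part of free RNA in either share was not tested. Median depths before thinning were 3498, 4260 and 4291 UMIs in the T-cell barcodes, below those of the tumour cells given above. A cell admitted by 1 Ereg UMI cannot be told apart from a cell that took it up from free RNA.

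Ereg stood at 390 CPM in the chosen cells of Flox+ICI, 355 in Flox+RI and 280 in CKO+RI, against 13.1, 0.962 and 26.4 CPM in the other non-cycling tumour cells, a gap the rule made. The transcript was not limited to non-cycling cells. Cycling tumour cells, whose Ereg the rule did not use, held 175, 150 and 154 CPM. Cells positive for R3hdml and Il1rl1 held 230, 137 and 340 CPM, interferon-responding cells 96.5 CPM in Flox+ICI and 201 CPM in CKO+RI, and cells positive for Lum and Dcn 257 CPM in CKO+RI. Barcodes outside the tumour limits held 66.7, 67.8 and 82.8 CPM.

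Sema3a stood at 1524, 1991 and 950 CPM in the chosen cells and at 957, 1455 and 523 CPM in the other non-cycling tumour cells. Cycling tumour cells were near the latter, at 893, 1448 and 522 CPM. Cells positive for R3hdml and Il1rl1 held 1457, 1409 and 1110 CPM, and Lum and Dcn positive cells of CKO+RI held 1185 CPM. The 4 tumour states of Flox+RI given here thus lay between 1409 and 1991 CPM, while outside the tumour limits it was at 415, 761 and 428 CPM.

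Dkk2 was not part of the rule, and in both Flox libraries it went with the Ereg and Sema3a transcripts. It stood at 110 CPM in the Ereg+ Sema3a+ cells of Flox+ICI (95% Poisson interval 104 to 116), at 200 CPM in Flox+RI (193 to 206) and at 33.5 CPM in CKO+RI (31.3 to 35.9). The other non-cycling tumour cells held 41.6, 89.1 and 28.7 CPM. The ratio was 2.64 in Flox+ICI (2.34 to 2.99), 2.24 in Flox+RI (2.09 to 2.41) and 1.17 in CKO+RI (1.05 to 1.3), so the excess was small in the library labelled CKO+RI. A Dkk2 UMI was found in 38.2%, 61.1% and 22.6% of the Ereg+ Sema3a+ cells and in 15.7%, 39.5% and 14.0% of the others. Thinned to 5000 UMIs, these were 24.4%, 41.7% and 9.97% against 10.5%, 22.7% and 6.85%. In T-cell barcodes thinned to 2000 UMIs the share with Dkk2 was 0% (0 of 135, exact upper bound 2.7%), 6.35% and 1.42%, against 11.6%, 26.1% and 3.9% of the Ereg+ Sema3a+ cells. In cells positive for R3hdml and Il1rl1, Dkk2 stood at 98.4 CPM in the 911 cells of Flox+RI, below the 200 CPM of the Ereg+ Sema3a+ cells there, and at 240 and 191 CPM in the 33 and 39 cells of Flox+ICI and CKO+RI. Interferon-responding cells held 13.6 CPM in Flox+ICI and 17.5 CPM in CKO+RI.

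**Figure D2:**
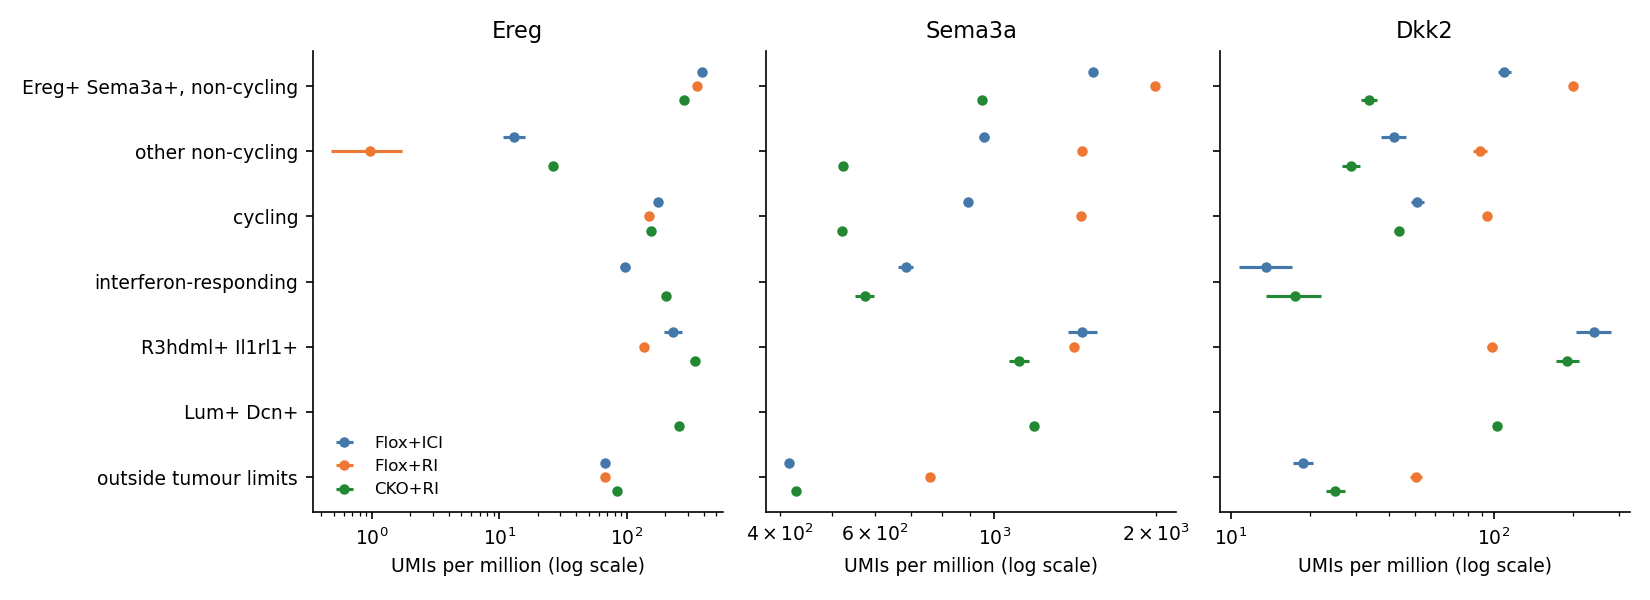
Level of Ereg, Sema3a and Dkk2 in CPM, on a log axis, in each tumour state and outside the tumour limits, with exact 95% Poisson intervals, for each library, leaving out sets under 30 cells. Dkk2, which the rule did not use, is at 110, 200 and 33.5 CPM in the Ereg+ Sema3a+ cells of Flox+ICI, Flox+RI and CKO+RI.

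Sequences upstream of the start are shown for Dkk2, the marker that the rule did not use, and for Rcan1, the gene of those named below with most of the motifs searched. Both come from RefSeq promoter windows of GRCm38.p6. Dkk2 is read at chr3:132085042-132085291 on the plus strand, with the letters TATAAA in capitals. Rcan1 is read at chr16:92400079-92400328 on the minus strand, before 1 of its 2 starts, with the letters TGACGTCA at -175 and TGACTCA at -110 from the start in capitals.
Dkk2: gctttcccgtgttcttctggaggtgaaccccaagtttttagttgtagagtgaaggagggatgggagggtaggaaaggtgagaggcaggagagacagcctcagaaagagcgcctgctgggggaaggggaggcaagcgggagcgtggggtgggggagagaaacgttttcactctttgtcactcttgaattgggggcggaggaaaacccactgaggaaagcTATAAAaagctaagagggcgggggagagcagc
Rcan1: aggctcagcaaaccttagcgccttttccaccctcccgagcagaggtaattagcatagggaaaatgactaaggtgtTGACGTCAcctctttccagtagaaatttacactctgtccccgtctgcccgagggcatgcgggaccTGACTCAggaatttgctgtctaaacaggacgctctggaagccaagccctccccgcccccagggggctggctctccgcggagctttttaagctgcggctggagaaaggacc
TGACGTCA is the full cyclic-AMP response element, TGANTCA is bound by AP-1 dimers of Fos and Jun proteins, and TATAAA is the TATA box. None of the 3 patterns contains another, and both strands were read. Of 32851 RefSeq windows of 300 bases, 7.81% held TGANTCA, 1.79% held TGACGTCA and 13.6% held TATAAA. Of the 15 named genes that were higher in the Ereg+ Sema3a+ cells, 11 matched a window (21 windows). TGANTCA was in windows of Prxl2a and Rcan1, TGACGTCA in that of Rcan1, and TATAAA in 0 of them. These matches are letters in a window and no binding was measured.

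Few genes separated the Ereg+ Sema3a+ cells from the other non-cycling tumour cells in all 3 libraries. Of 11301 genes with at least 50 UMIs in each library over both cell sets, 36 were at least 1.5-fold higher in each library, which is 0.319%, and 172 were at least 1.5-fold lower, which is 1.52%. Ereg itself is among the 36, and Sema3a is not, since its ratio in Flox+RI was 1.37. The median log2 ratio over all genes was -0.01. With comparison cells weighted to the depth of the chosen cells the higher genes numbered 50, of which 27 were among the 36.

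Of 15 secreted inflammatory and protease genes measured, 5 were at least 1.5-fold higher in each library (Ccl2, Ccl7, Il11, Lif and Hgf) and 0 were lower, with a median log2 ratio of 0.73. Ccl2, which draws monocytes, stood at 703, 455 and 920 CPM against 341, 278 and 554, ratios of 2.06 (1.97 to 2.15), 1.64 (1.57 to 1.71) and 1.66 (1.62 to 1.7). Ccl7, its neighbour and relative, stood at 112, 100 and 119 CPM against 47.7, 65.0 and 70.9. Il11, a cytokine that signals through gp130, stood at 33.0, 23.2 and 10.2 CPM against 15.7, 14.3 and 5.63. Lif, a cytokine of the same receptor family, was low throughout, at 3.74, 2.9 and 2.25 CPM against 1.15, 1.66 and 1.32. Hgf, the ligand of the receptor MET, stood at 8.65, 9.08 and 3.25 CPM against 2.57, 3.94 and 1.28, ratios of 3.37 (2.08 to 5.73), 2.31 (1.65 to 3.28) and 2.53 (1.65 to 3.97). Csf1, the macrophage growth factor, had ratios of 1.81, 1.81 and 1.44 and missed the limit in CKO+RI only. Cxcl1 and Cxcl2, which draw neutrophils, missed it there too, with ratios of 1.88, 2.64 and 1.41 for Cxcl1 and 1.83, 1.59 and 1.39 for Cxcl2.

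Among the named genes, Fgf7, keratinocyte growth factor, stood at 62.3, 96.0 and 25.9 CPM against 15, 56.0 and 8.49, ratios of 4.15 (3.42 to 5.09), 1.71 (1.57 to 1.88) and 3.05 (2.6 to 3.59). Pthlh, the parathyroid hormone-related protein known for raising calcium in cancer, stood at 162, 94.6 and 99.9 CPM against 105, 49.3 and 58.0. Bdkrb2, a bradykinin receptor, had ratios of 2.75 (2.0 to 3.84), 1.96 (1.56 to 2.48) and 2.16 (1.68 to 2.79).

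Crabp1 and Stra6, which handle vitamin A and its derivatives, were among the higher genes. Crabp1, which carries retinoic acid in the cytoplasm, stood at 154, 152 and 58.0 CPM against 41.2, 81.0 and 25.4, ratios of 3.74 (3.32 to 4.22), 1.88 (1.74 to 2.03) and 2.28 (2.07 to 2.51). Stra6, a membrane receptor that takes up retinol, stood at 57.8, 63.0 and 21.4 CPM against 29.8, 39.5 and 10.8. Both were lowest in CKO+RI in either cell set. They were not taken from a list, and no list of retinoid genes was examined. Prxl2a, which encodes a peroxiredoxin-like protein, stood at 242, 372 and 150 CPM against 91.4, 178 and 71.9.

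Dusp2, a phosphatase of MAP kinases, stood at 120, 71.5 and 119 CPM against 66.7, 40.9 and 75.6. Rcan1, an inhibitor of calcineurin, stood at 71.5, 47.5 and 40.6 CPM against 42.7, 28.7 and 26.5. St3gal1, a sialyltransferase of O-glycans, had ratios of 1.76, 1.51 and 1.63, Rnf24, a RING finger protein, 2.4, 2.01 and 1.69, and the organic anion transporter Slco4a1, at 3.17 to 4.29 CPM, 2.57, 2.39 and 2.18. The intervals of these ratios lay above 1 in each library.

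**Figure D3:**
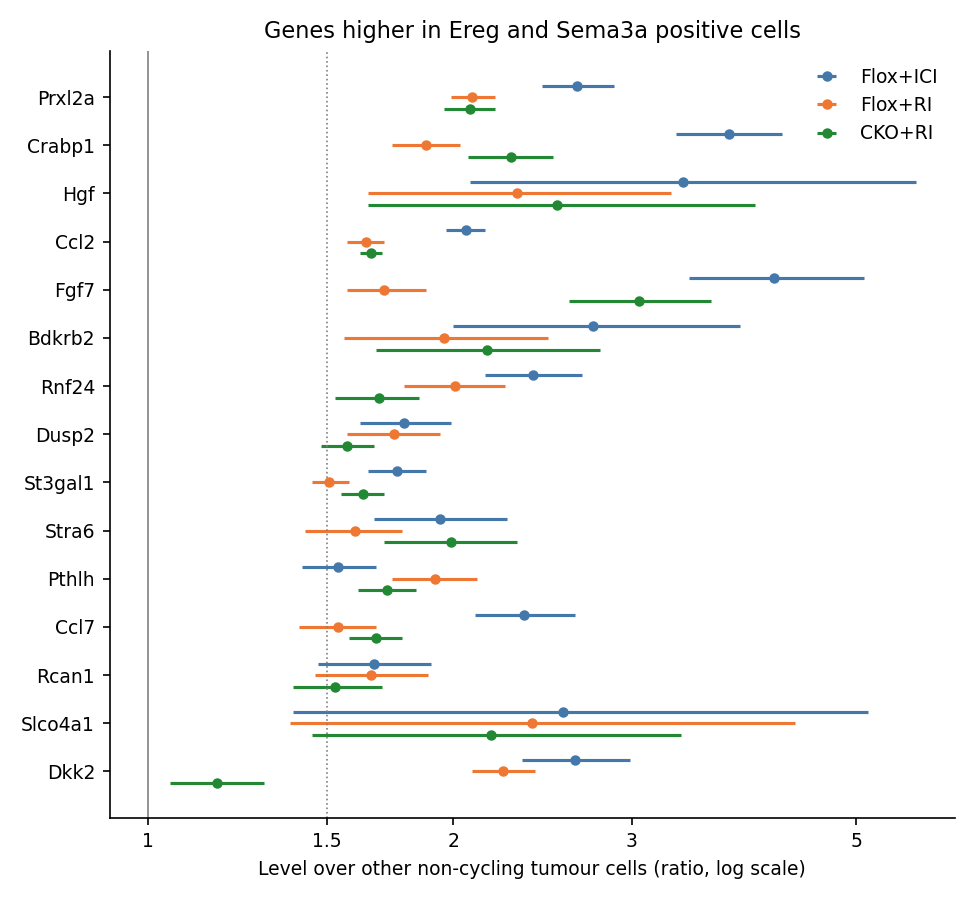
Ratio of the level in Ereg+ Sema3a+ cells to that in the other non-cycling tumour cells, on a log axis, for Dkk2 and 14 named higher genes, with exact 95% intervals, 1 symbol for each library, a solid line at 1 and a dotted line at the 1.5-fold limit. Crabp1 and Fgf7 have their highest ratios in Flox+ICI (3.74 and 4.15), and Dkk2 is close to 1 in CKO+RI (1.17).

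Receptors and targets of epiregulin were read from lists, beside all-gene shares of 0.319% higher and 1.52% lower, so that counts of 0 are near the background. Of 10 EGF receptor and adaptor genes measured, 0 were past the limit in either direction, and Egfr itself stood at 7.4, 6.61 and 2.79 CPM against 6.42, 7.87 and 2.86. Of 17 targets and feedback genes of ERK, the kinase below EGFR, 0 were higher and 1 was lower, with a median log2 ratio of 0.16. The lower one was Egr1, an immediate early transcription factor, with ratios of 0.351, 0.375 and 0.282. Under the stricter limits Egr1 was at 0.846, 0.687 and 0.909, and 0 ERK genes were lower. Dusp6 and Fosl1, often used as ERK readouts, did not pass in either direction, Fosl1 having ratios of 1.36, 1.17 and 1.38. Of the other EGF-family ligands, 2 were measured deeply enough and 0 were past the limit in all 3 libraries. Areg, the amphiregulin gene, stood at 47.1, 15.4 and 55.6 CPM against 33.9, 21.4 and 30.5, so that it was higher in Flox+ICI and CKO+RI and lower in Flox+RI. Under stricter tumour limits, given below, the ratio in Flox+RI reversed to 1.39, with 1.54 in Flox+ICI and 1.89 in CKO+RI. Hbegf, heparin-binding EGF, stood at 87.3 and 57.1 CPM in the Flox libraries against 98.7 and 65.6.

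Of 12 semaphorins other than Sema3a and 7 semaphorin receptors measured, 0 passed the limit in either direction in all 3 libraries, which is again near the all-gene shares. Nrp2 was the more readily found neuropilin, at 220, 120 and 148 CPM against 173, 98.4 and 133, while Nrp1, the receptor for semaphorin 3A, had 11.3, 13.8 and 10.1 CPM against 8.08, 18.8 and 10.9. Plxna4, a plexin A that pairs with neuropilins, had ratios of 1.24, 1.09 and 1.28. Of the Wnt antagonists, Dkk2 and Kremen1, a co-receptor of Dickkopf proteins, were measured deeply enough, and Kremen1 had ratios of 1.05, 0.952 and 1.06.

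Over the 26 pathway lists, 19 had no gene past the 1.5-fold limit in each library in either direction. Among 15 YAP and TAZ targets, Fjx1 was higher. None of 16 HIF targets, 15 glycolysis genes, 15 MHC class I and interferon genes, 20 genes of the LKB1, AMPK and SIK kinases or 18 DNA replication genes passed. For 18 mitosis genes outside the rule the median log2 ratio was -0.24, with 0 past the limit.

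Markers of other cell types moved with this comparison. Fibroblast markers summed to 640, 672 and 738 CPM in the Ereg+ Sema3a+ cells against 381, 506 and 695, and their part in the higher secreted genes was not tested. Most of that sum was Col3a1 (558, 436 and 566 CPM), while Col1a1 was at 0.545, 20.7 and 0.375 CPM and Postn had 0, 6 and 1 UMIs. In Flox+RI 88.6% of the Col1a1 UMIs were in 10 cells. Pdgfra had a UMI in 36.4%, 56.1% and 49.8% of the Ereg+ Sema3a+ cells, against 15.3%, 34.5% and 34.9% of the others. In CKO+RI, Lum and Dcn had a UMI in 42.1% and 43.1% of the Ereg+ Sema3a+ cells. Macrophage markers summed to 470, 460 and 286 CPM against 861, 1265 and 625, and their part in the secreted genes was likewise not tested. Barcodes outside the tumour limits held 10010, 8484 and 8387 CPM of macrophage markers. T cell markers summed to between 6.12 and 10.5 CPM in these cell sets.

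The genes lower in the Ereg+ Sema3a+ cells were led by genes of normal lung epithelium. Scgb1a1, the secretoglobin of club cells, stood at 258, 25.0 and 64.3 CPM against 6418, 513 and 752, which is 24.9-fold, 20.5-fold and 11.7-fold lower. The surfactant gene Sftpb stood at 26.9, 5.69 and 8.66 CPM against 192, 174 and 65.1. Smim6, Lyz1, Cxcl15, Ccdc153, Cxcl17, Ccser1, Sftpd and the tight junction gene Cldn3 followed, between 6.3-fold and 52.4-fold lower. Few of the other cells carried much of this. In each library, 10 of them held 93.3% to 98.5% of their Lyz1 UMIs and 96.4% to 100% of their Ccdc153 UMIs. For Cxcl15 it was 58.0% to 77.3%. Markers of alveolar type 2 cells summed to 516, 147 and 234 CPM against 2256, 2982 and 1735, and markers of airway and alveolar type 1 cells to 313, 96.0 and 97.4 CPM against 6500, 576 and 807, most of it Scgb1a1 in the other cells. Of 9 epithelial genes, 4 were lower in each library (Cdh1, Krt7, Krt19 and Cldn3). Stricter tumour limits, which required Hmga2 and Igf2bp2 or Igf2bp3 and allowed at most 1 Xist UMI, were chosen after the data were seen. They kept 89.1%, 86.3% and 92.1% of the Ereg+ Sema3a+ cells and 82.2%, 78.9% and 82.3% of the others. The lower genes then numbered 2 of 10942, Chil1 and Ly6c1, and Scgb1a1 had ratios of 0.721, 0.952 and 0.953. The higher genes then numbered 41, of which 30 were among the 36, and 4 of 15 secreted genes passed.

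The Ereg+ Sema3a+ cells of each library were divided at their median Ereg level of 231, 215 or 143 CPM. Since the rule used Ereg, and the higher genes had been found with it, the values are a description. Median depth above and below was 14382 and 13742 UMIs in Flox+ICI, 13593 and 15590 in Flox+RI, and 23509 and 23624 in CKO+RI. Fgf7 stood at 88.2, 121 and 35.2 CPM above and 35.8, 75.4 and 17.2 below, and Ccl2 at 872, 519 and 1140 above and 530, 402 and 717 below. Sema3a stood at 1873, 2508 and 1169 CPM above and 1166, 1558 and 747 below. Dkk2, in Flox+ICI and Flox+RI, stood at 152 and 275 CPM above and 66.3 and 137 below, and in CKO+RI at 32.4 above and 34.6 below.

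The chromosomal neighbours of Ereg were read as well, again as a description. Cxcl2 lies 171 kb and Cxcl1 183 kb from Ereg, and both were higher in the Ereg+ Sema3a+ cells of each library, as given above. Areg, at 65.0 kb, was not, and Mthfd2l, a mitochondrial folate enzyme gene at 144 kb, had ratios of 1.11, 1.03 and 1.06. Other neighbours were lower in each library. Cxcl15, at 280 kb, had ratios of 0.0766, 0.0301 and 0.13, and Pf4, at 302 kb, of 0.372, 0.404 and 0.654. The EGF-family genes Epgn and Btc, which lie in the same cluster, had 2, 2 and 2 and 2, 4 and 15 UMIs.

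The library labelled CKO+RI differed from Flox+RI in many genes of the Ereg+ Sema3a+ cells. With 1 library each, the host genotype and the library cannot be told apart. Of 12479 genes with at least 50 UMIs over both, 332 were at least 2-fold higher in CKO+RI (2.66%) and 652 at least 2-fold lower (5.22%), with a median log2 ratio of 0. The higher genes named included transcription factor, cytoskeletal and membrane genes, and the lower ones enzymes and acute-phase or matrix genes. The comparison of Flox+RI with Flox+ICI, below, uses the same Flox+RI cells.

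Dkk2 was among the lower genes, at 33.5 CPM in CKO+RI and 200 in Flox+RI, a ratio of 0.168 (0.155 to 0.181). The other non-cycling tumour cells had a ratio of 0.322. Sema3a was at a ratio of 0.477 in the chosen cells and 0.36 in the others, and Ereg at 0.79 in the chosen cells, both under the condition of at least 1 UMI in a deeper library. Of 15 semaphorins measured, 1 was higher (Sema4c, 36.1 against 11.9 CPM) and 5 were lower (Sema3a, Sema3d, Sema4a, Sema4d and Sema7a), with a median log2 ratio of -0.15. Of 3 Wnt antagonists measured, Dkk2 and Sfrp1 were lower, the latter with 93.8% of its UMIs in Flox+RI in 10 cells. Among 4 EGF-family ligands measured, Areg was 3.62-fold higher (3.18 to 4.13) and Egf 2.6-fold higher, while their receptor Egfr was lower at a ratio of 0.422.

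Sox11, a transcription factor of embryonic neural tissue, had 410 UMIs in CKO+RI (17.1 CPM) and 0 in Flox+RI. Against a floor of 3 counts over the Flox+RI cells it was at least 104-fold higher, and Flox+ICI held 19.6 CPM. Scin, which severs actin filaments, stood at 9.75 CPM against 0.383, a ratio of 25.5 (12.2 to 64.0), Cavin2, a coat protein of caveolae, at 23.4 against 1.37, a ratio of 17.1 (11.5 to 26.7), and the calcium sensor Hpcal1 at 25.6 against 3.28. Tmem121 stood at 5.21 against 0.164 CPM, from 125 and 3 UMIs, a ratio of 31.7 (10.6 to 156). For these 5 genes Flox+ICI, at 19.6, 11.7, 45.3, 29.8 and 5.69 CPM in the order given, was above CKO+RI, and Flox+RI was the library that stood apart.

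Lum and Dcn, the proteoglycans lumican and decorin, stood at 49.9 against 0.82 CPM and at 67.0 against 6.07 CPM, although the rule had removed cells with at least 2 UMIs of both. Of the Dcn UMIs in Flox+RI, 96.4% were in 10 cells. Outside the tumour limits the ratios were 155 for Lum and 10.2 for Dcn, and the part of free RNA in the members' values was not tested. Hist1h2ap, a histone gene, stood at 103 against 10.4 CPM, with 6.55 CPM in Flox+ICI.

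Of the lower genes in CKO+RI, Ggt1, a gamma-glutamyltransferase of glutathione metabolism, was 47.3-fold lower (0.167 against 7.87 CPM). Faim2, an inhibitor of Fas-mediated death, was 26.5-fold lower (0.625 against 16.6 CPM). Gldc, which cleaves glycine, was 17.0-fold lower, Rbp2, a retinol carrier, 15.8-fold lower, and Elfn2 14.3-fold lower. Flox+ICI held 2.49, 1.64, 1.87, 5.38 and 0.234 CPM of these 5 genes, between both RI libraries for all but Elfn2. Podoplanin (Pdpn) was 11.6-fold lower, with 2.12 against 24.7 CPM, and was highest in Flox+ICI at 88.7 CPM. The acute-phase gene Saa3 was 10.6-fold lower and the matrix gene Mgp 10.1-fold lower, but in Flox+RI 56.6% of the Saa3 UMIs and 85.7% of the Mgp UMIs were in 10 cells. Under the stricter tumour limits Mgp had a ratio of 0.474 and Saa3 of 0.155.

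**Figure D4:**
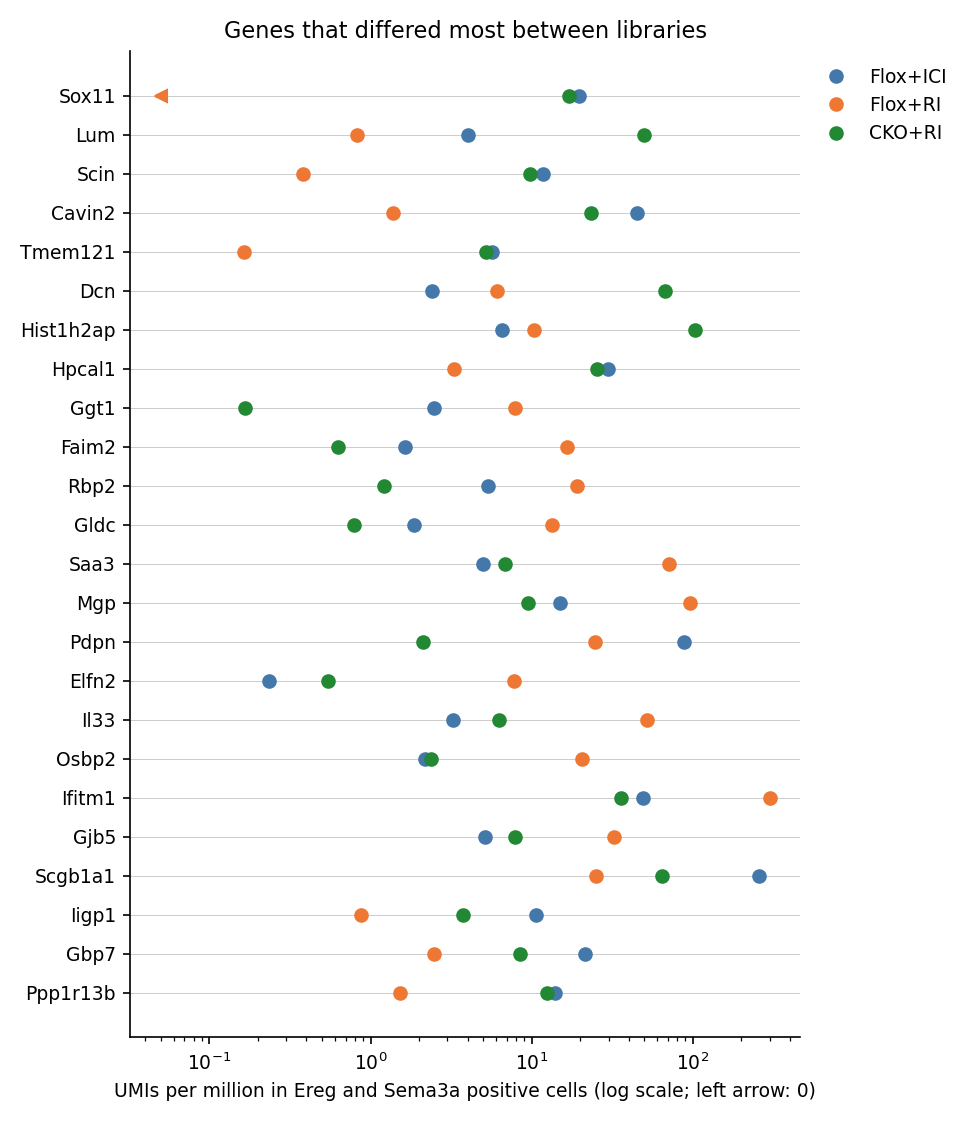
Level in CPM, on a log axis, of the genes named in the comparisons between libraries, in the Ereg+ Sema3a+ cells, 1 symbol for each library, with an arrow at the left for 0 UMIs. Sox11 has 0 UMIs in Flox+RI, and Scin and Cavin2 are low in Flox+RI and higher in both other libraries.

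Among the lists, immediate early and heat shock genes had 4 of 15 higher in CKO+RI, with a median log2 ratio of 0.54. These were Ier2 (2.57-fold), Zfp36 (3.7-fold), Hspa1a (2.18-fold) and Hspa1b (3.05-fold), which respond to growth factors and to stress. None of 16 MHC class I and interferon genes passed the 2-fold limit, with a median of 0.47 and ratios of 1.67 for H2-D1 and 1.61 for B2m. The interferon limit of the rule had left out 63 cells with both transcripts in CKO+RI and 1 in Flox+RI. Of 16 HIF targets, Vegfa (0.39) and Pfkfb4 (0.428) were lower, with a median of -0.34. Of 11 CREB and CRTC targets, the phosphodiesterases Pde4b (0.212) and Pde4d (0.153) were lower. Of 17 secreted genes, 3 were higher (Cxcl1, Ccl2 and Csf1, at 2.48, 2.02 and 2.01) and 5 lower (Il11, Il1b, Il33, Plat and Hgf). Ccl2 was thus higher in the Ereg+ Sema3a+ cells within each library and higher in CKO+RI than in Flox+RI, while Il11 and Hgf were higher within each library and lower in CKO+RI.

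Flox+RI against Flox+ICI addresses the addition of radiotherapy to ICI, again with 1 library each, so that treatment and library cannot be told apart. Of 12110 genes measured, 307 were at least 2-fold higher in Flox+RI (2.54%) and 402 at least 2-fold lower (3.32%). The median log2 ratio over all genes was -0.18, and with ratios centred on it 447 were higher and 211 lower, which turned the balance. Dkk2 was 1.82-fold higher in Flox+RI (1.71 to 1.93) and 2.07-fold after centring, which takes it past the limit. Sema3a was 1.31-fold higher, and Ereg had a ratio of 0.91 that reversed to 1.03 after centring.

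Of 16 HIF targets, which respond to low oxygen, 5 were at least 2-fold higher in Flox+RI and 0 lower, with a median log2 ratio of 0.88. Adm, the vessel-dilating peptide adrenomedullin, was 4.97-fold higher, Bnip3, a mitophagy receptor, 4.14-fold, Vegfa, the main angiogenic factor, 2.31-fold, Ndrg1 2.21-fold, and Egln3, an oxygen-sensing hydroxylase, 2.19-fold. Pfkfb3, a glycolytic regulator on the same list, had a ratio of 0.672. Of 15 glycolysis genes 3 were higher, Pgk1 (2.21-fold), Ldha (2.01-fold) and the lactate exporter Slc16a3 (2.37-fold), with a median of 0.79. The other non-cycling tumour cells of the same libraries had ratios of 6.71 for Adm and 4.94 for Bnip3.

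Of 16 MHC class I and interferon genes, Tap1 (0.483), Psmb9 (0.436), Psmb10 (0.452) and Nlrc5 (0.413) were lower and the median log2 ratio was -0.83. The rule limits interferon-induced genes and had left out 150 cells with both transcripts in Flox+ICI and 1 in Flox+RI. These ratios therefore cover only the cells that stayed below that limit. After centring on the all-gene median, Psmb9 and Nlrc5 still passed the 2-fold limit, and Tap1 and Psmb10 did not. Isg15 (0.968) and Cd274 (0.972) were close to 1. Iigp1, which the rule limits, and Gbp7, both interferon-induced GTPases, stood at 0.875 against 10.6 CPM and at 2.46 against 21.4 CPM. Of 18 ERK targets and feedback genes, the Sprouty genes Spry2 (0.476) and Spry4 (0.466) and Phlda1 (0.44) were lower, with a median of -0.36. Spry2 and Spry4 also fell short of the limit after centring. Areg was at a ratio of 0.326 and Cxcl1 at 0.404.

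**Figure D5:**
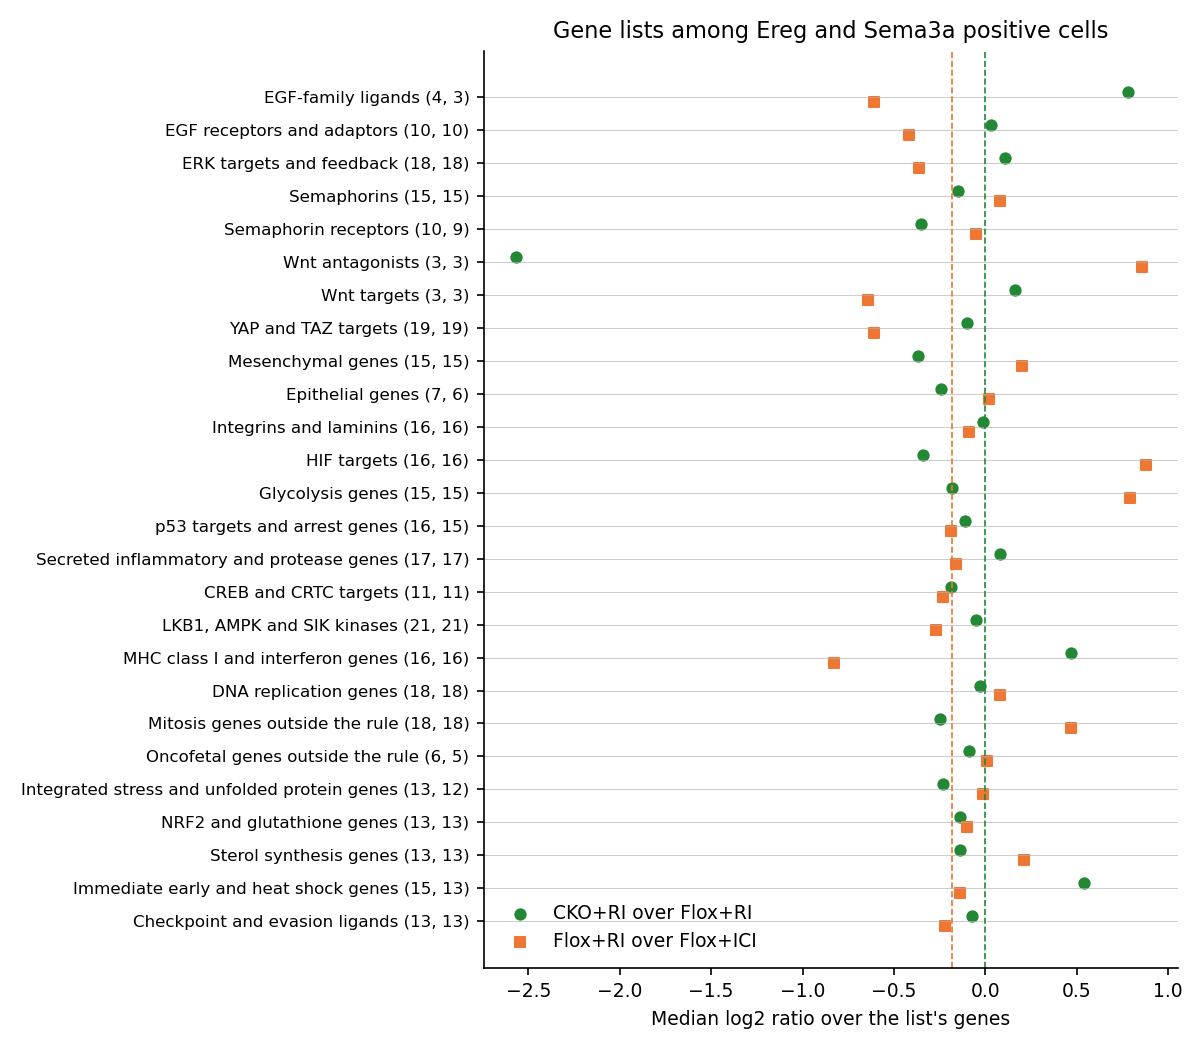
Median log2 ratio over the measured genes of each pathway list in the Ereg+ Sema3a+ cells, as circles for CKO+RI over Flox+RI and squares for Flox+RI over Flox+ICI, with the number of genes measured for each in parentheses and the all-gene medians (0 and -0.18) as dashed lines. HIF targets stand at -0.34 and 0.88 and MHC class I and interferon genes at 0.47 and -0.83, on opposite sides in the comparisons, which share the Flox+RI library.

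Il33, an alarmin released by damaged cells, stood at 51.7 CPM in Flox+RI against 3.27 in Flox+ICI, a ratio of 15.8 (11.6 to 22.1), with 6.25 CPM in CKO+RI. Ifitm1 stood at 300 against 48.8 CPM, a ratio of 6.14 (5.65 to 6.68), with 7.12 in the other non-cycling tumour cells and 0.581 outside the tumour limits. Gjb5, a connexin, had a ratio of 6.27 (4.86 to 8.22), Osbp2, an oxysterol-binding protein, 9.37 (6.38 to 14.3), Faim2 10.1 (6.5 to 16.6), and Elfn2 33.2 (11.1 to 163, from 142 and 3 UMIs). Saa3, at a ratio of 14.4, was at 9.03 under the stricter limits, and Mgp, at 6.44, was at 1.32. On the lower side Sox11 had 0 UMIs in Flox+RI against 251, 119-fold lower against the same floor, with an upper bound of 0.0104 on the ratio. Cavin2 was 33.1-fold lower, Scin 30.5-fold, Hpcal1 9.1-fold, and Ppp1r13b, which encodes the p53-binding ASPP1, 9.06-fold. Scgb1a1 was 10.3-fold lower (25.0 against 258 CPM), and its ratio outside the tumour limits was 0.162. Of 5 airway and alveolar type 1 markers measured in this comparison, Scgb1a1 was lower and Aqp5 higher.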

How the data were processed

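Single-cell RNA of mouse tumour tissue was measured in 3 libraries, 1 per group. The deposited matrices hold UMI counts per gene and barcode, which the authors made with Cell Ranger. Its version is 6.1.2 per the file headers, while the submitters' processing notes name 6.0. The build was mm10 (GRCm38), and the notes also name Seurat 5.0.3 without a step. Counts were used as deposited, without ambient-RNA correction. The members, the 26 pathway lists and the 12 lists of other cell types were chosen with earlier results of these data known.

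UMIs were summed over each cell set and library and scaled to CPM with python 3.11.15, numpy 2.4.6, scipy 1.17.1 and pandas 2.3.3, with exact Poisson intervals for levels, conditional binomial intervals for ratios and Clopper-Pearson intervals for shares, all at 95%. Cells are not replicates, so no test was made. The scripts were tested on simulated data. Doublets were scored with scrublet in scanpy 1.11.5, and the highest 0.8% per 1000 barcodes were marked but kept, since scrublet's own threshold called 1 barcode in Flox+RI. PCR duplicates are collapsed by UMI, and precision follows the 75543561 to 161250286 UMIs per library.

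Named genes within libraries were the 15 highest and 10 lowest by the interval bound nearest to 1 in the library where it was nearest, among genes past 1.5-fold in each library. Between libraries they were the 8 highest and 8 lowest by that bound, with at least 50 UMIs in the higher library and a UMI in at least 10% of its members. Ribosomal, mitochondrial, haemoglobin and predicted genes were left out. List members past the limit and up to 3 others by level were also named, and the other genes were singled out after their values were seen. 1 gene that this rule takes is not reported here.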

Additional observations from a re-analysis of the deposited data

Results flagged for a closer look

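In the lists of ligands, receptors, Wnt antagonists and secreted genes, 7 genes had ratios of the Ereg+ Sema3a+ cells to the other non-cycling tumour cells with intervals on opposite sides of 1 in different libraries. The lists held 11 EGF-family ligands, 11 EGF receptors and adaptors, 20 semaphorins, 11 semaphorin receptors, 14 Wnt antagonists and 25 secreted genes. The share of all genes with such intervals was not computed, so the count of 7 has no background beside it. The differences between libraries were not tested. Areg was at a ratio of 0.717 in Flox+RI but 1.39 in Flox+ICI and 1.82 in the library labelled CKO+RI, and under the stricter limits its ratio in Flox+RI was 1.39. Hbegf was at 0.885 in Flox+ICI and 0.87 in Flox+RI but 1.28 in CKO+RI. Errfi1, a feedback inhibitor of EGFR, was at 0.892 in Flox+RI but 1.13 in Flox+ICI and 1.37 in CKO+RI. Sema5a was at 0.731 in CKO+RI and 1.75 in Flox+RI. Nrp1 was at 0.735 in Flox+RI (0.611 to 0.886) and 1.4 in Flox+ICI (1.03 to 1.91). Cxcl5, a neutrophil chemokine, was at 0.221 in Flox+RI and 5.87 (1.82 to 30.1) in Flox+ICI, from 6 and 29 UMIs in the Ereg+ Sema3a+ cells. In Flox+ICI the other cells held only 0.385 CPM, and 93.1% of the Cxcl5 UMIs of the Ereg+ Sema3a+ cells were in 10 cells. Timp1, an inhibitor of matrix metalloproteinases, was at 0.859 in Flox+RI and 1.23 in Flox+ICI, and under the stricter limits at 0.997 in Flox+RI.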

How the results depend on the processing

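No paired analysis was possible because each group had 1 library, which also left no replicate to leave out. Shares of tumour cells (Flox+ICI, Flox+RI, CKO+RI) were 18.2%, 17.3% and 9.04% when thinned, 19.1%, 18.9% and 11.6% with 2 UMIs of each gene, and 19.6%, 18.4% and 14.0% with a division limit of 2 per 10000. With 5 of the 7 tumour genes they were 25.2% and 23.4% in the Flox libraries. Over all barcodes they were 7.7%, 8.3% and 9.92%, an order that differs from that over tumour cells. Co-detection when thinned was 1.14, 1.05 and 1.17. The 36 genes higher within libraries became 220 against cells with neither gene, 68 with 2 UMIs of each, and 20 or 74 at a minimum of 200 or 10 UMIs per gene. The 172 lower genes became 292 against cells with neither gene, 80 after depth weighting, 38 or 606 at those minimums, and 2 under the stricter limits. The 332 genes higher in CKO+RI became 149, 776 and 158 at 200 UMIs, at 10 UMIs and thinned, and the 652 lower genes 264, 1557 and 288. For Flox+RI against Flox+ICI the 307 higher genes became 117, 840 and 141, and the 402 lower genes 157, 956 and 239, or 211 when centred. Reversals were Ccdc153 under the stricter limits (log2 ratio 0.04), the EGF-family ligands in CKO+RI thinned (-0.03), the mitosis list in Flox+RI against Flox+ICI thinned (-0.01), and Ereg there (1.03 centred, 1.02 thinned, 1.03 with the division limit of 2). Areg within Flox+RI also reversed, from 0.717 to 1.39 under the stricter limits. Causes were not tested. Of other values, 172 of 189 list medians, taken from lists past a set log2 margin, moved by less than that margin. Of named genes within libraries, 175 of 234 median ratios stayed in the range of the libraries' own ratios. Between libraries, 269 of 319 named ratios stayed within their intervals. Depth limits genes such as Lif, Slco4a1 and Tmem121, and UMIs from free RNA limit cells admitted by 1 Ereg UMI.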
